A study of Mus musculus with 12 samples.

Results

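The genes for 6 receptors of neutrophil chemotaxis and maturation were examined, namely Fpr1, Fpr2, Cxcr2, Csf3r, Ltb4r1 and C5ar1, which are 6 of the 21900 protein-coding genes of the annotation used. Their open chromatin was read from every region that the authors' comparison tables name for these genes and every called peak within 10 kb of a gene body. This gave 26 of the 73156 regions of the series, with 1 at Fpr1, 3 at Fpr2, 6 at Cxcr2, 5 at Csf3r, 4 at Ltb4r1 and 7 at C5ar1. The rule uses gene names and positions and no measured difference, apart from 1 region far upstream of Csf3r that is included because a deposited table, which lists called differences only, names it for that gene. Regions are named by gene and by the distance in kb of the summit from the transcription start, negative upstream. Of the 26 regions, 14 held a called peak in all 12 libraries and 12 in 1 to 11 of them.

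The assay was ATAC-seq, in which a transposase cuts accessible DNA and the pile of fragments at a site measures how open it is. All cells were granulocyte-monocyte progenitors (GMPs) from C57BL6 mouse bone marrow that carry ER-HOXA9, a fusion of the estrogen receptor hormone-binding part with the leukaemia-associated factor HOXA9. Every group, the controls included, was grown with stem cell factor and 0.5 uM beta-estradiol, the hormone that keeps the fusion active, so the fusion and its hormone are common to all groups compared. Each of the 6 groups holds 2 libraries that the design text calls biological replicates; whether they come from separate mice or separate cultures of 1 line is not given. Day0 cells were untreated, and 5 groups were collected on day 2. Vehicle cells received DMSO. LSD1i cells received 200 nM GSK-LSD1, which blocks LSD1, an enzyme that removes methyl groups from histone H3. The group 6MP received 5 uM of the purine analogue mercaptopurine, CER received 5 uM of cerulenin, a fatty acid synthase inhibitor, and Combo received the 3 drugs together at the same doses. The LSD1i and Combo libraries together are called the 4 LSD1-inhibited libraries, and those of Vehicle, 6MP and CER the 6 other day 2 libraries.

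Neutrophils find infected tissue through receptors that couple to Gi proteins. FPR1 and FPR2 bind formylated peptides from bacteria and mitochondria, CXCR2 binds the CXC chemokines, LTB4R1 the lipid leukotriene B4 and C5AR1 the complement fragment C5a. CSF3R is a cytokine receptor for granulocyte colony-stimulating factor, which drives the production and maturation of neutrophils, and progenitors already carry it, whereas the formyl peptide receptors and CXCR2 are features of late maturation. LSD1 works with the repressor GFI1, a regulator of granulocyte development.

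The promoters themselves fell into distinct kinds. On the window from 250 bases before to 50 bases after the RefSeq start (GRCm38.p6), Csf3r, Ltb4r1 and C5ar1 had a called peak in all 12 libraries, Fpr1 and Fpr2 in none, and Cxcr2 in 6. Over 17492 coding genes, 51.1% of such windows had a peak in all 12 libraries and 45.6% in none, so both extremes are common. The sequences shown are those of the promoters without a peak (Fpr1 and Fpr2), of the one that varied (Cxcr2) and of one that was open throughout (Csf3r). They are given 5′ to 3′ on the strand of the gene, and capitals mark matches to the motifs described after them. The Fpr1 window is chr17:17883890-17884189 on the minus strand, the Fpr2 window chr17:17887574-17887873, the Cxcr2 window chr1:74153744-74154043 and the Csf3r window chr4:126024409-126024708, the last 3 on the plus strand.
Fpr1 promoter: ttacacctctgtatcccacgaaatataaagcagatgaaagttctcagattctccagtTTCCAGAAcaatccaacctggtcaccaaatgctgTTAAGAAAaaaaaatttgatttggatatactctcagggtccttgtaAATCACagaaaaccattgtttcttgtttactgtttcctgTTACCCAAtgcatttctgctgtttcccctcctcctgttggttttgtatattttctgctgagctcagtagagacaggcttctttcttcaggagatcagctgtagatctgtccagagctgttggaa
Fpr2 promoter: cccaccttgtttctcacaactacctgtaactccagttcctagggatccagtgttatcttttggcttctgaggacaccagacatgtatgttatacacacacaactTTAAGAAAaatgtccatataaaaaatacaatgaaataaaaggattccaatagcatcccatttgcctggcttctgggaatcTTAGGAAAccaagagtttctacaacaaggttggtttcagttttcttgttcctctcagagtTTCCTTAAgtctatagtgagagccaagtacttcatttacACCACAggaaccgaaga
Cxcr2 promoter: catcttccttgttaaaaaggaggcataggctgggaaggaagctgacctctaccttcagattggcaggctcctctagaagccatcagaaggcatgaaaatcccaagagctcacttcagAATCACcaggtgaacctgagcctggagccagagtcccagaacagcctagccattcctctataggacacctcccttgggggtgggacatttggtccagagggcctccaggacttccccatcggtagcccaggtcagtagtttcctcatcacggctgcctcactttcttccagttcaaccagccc
Csf3r promoter: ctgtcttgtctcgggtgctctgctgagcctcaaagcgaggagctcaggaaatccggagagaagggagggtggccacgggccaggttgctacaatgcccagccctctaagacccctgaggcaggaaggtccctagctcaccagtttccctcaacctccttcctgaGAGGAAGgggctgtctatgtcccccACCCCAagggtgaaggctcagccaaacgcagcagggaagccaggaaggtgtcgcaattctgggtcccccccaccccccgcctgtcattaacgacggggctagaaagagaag

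The letters of 6 motifs of myeloid regulators were searched on both strands: C/EBP (TTNCNNAA), PU.1 (GAGGAAG), RUNX (TGNGGT), AP-1 (TGANTCA), GFI1 (AATCAC) and HOXA9-PBX (TGATTNAT). None of the matches marked overlap, except that 2 RUNX matches in the Ltb4r1 window share a base. The C/EBP letters occurred 3 times in the Fpr1 window, 3 times in the Fpr2 window and once in that of C5ar1, against 40.7% of 32851 promoter windows of this length with at least 1 match. The GFI1 letters stood in the Fpr1 and Cxcr2 windows (10.4% of all windows), and the PU.1 letters in those of Csf3r and Ltb4r1 (13.6%). RUNX letters were in the windows of Fpr2, Csf3r, Ltb4r1 and C5ar1 (45.8%), while AP-1 (7.81%) and HOXA9-PBX letters (3.22%) were in none of the 6. The windows without a peak were also the poorest in G and C, with 40% at Fpr1 and 39.3% at Fpr2 against 53.7% to 60.7% at the other 4. A match describes letters only.

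Signal was compared at peak summits. The number of fragments at each summit was recovered from the deposited peak lists and divided by the lowest background of the library, then scaled so that the median over 33368 regions called in all 12 libraries is the same in each library. Scaling by depth alone, an alternative, leaves out this last step. The signal is given in times background, and the difference between groups is on the log2 scale with its standard error (SE). A region is called opened or closed where its adjusted p is 0.05 or less, from 1 limma fit of all 12 libraries with Benjamini-Hochberg adjustment over all regions of the series that have a peak in every library of the comparison. Each p-value sets the difference at a region against the spread there between the 2 libraries of a group, taken over the 6 groups. That spread is drawn toward the usual spread of regions of like signal. Peaks numbered 42651 to 56398 per library, and the lowest pile listed was 10 to 14 fragments. Before scaling, the median signal was 28.3 to 42.7 times background in 10 libraries, 16.9 in 6MP replicate 1 and 23.0 in CER replicate 2. The cells carried the promoter peaks of GMPs, at 9 of 11 listed genes in every library, with Elane and Prtn3 without a peak, and no peak at any of 5 T and NK cell or 2 stromal and endothelial promoters. Every library also had peaks at 2 of 3 B cell, 3 of 4 megakaryocyte, 1 of 4 erythroid and 1 of 3 mast cell, basophil and eosinophil promoters, and at 1 to 2 of 5 dendritic ones.

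**Figure D1:**
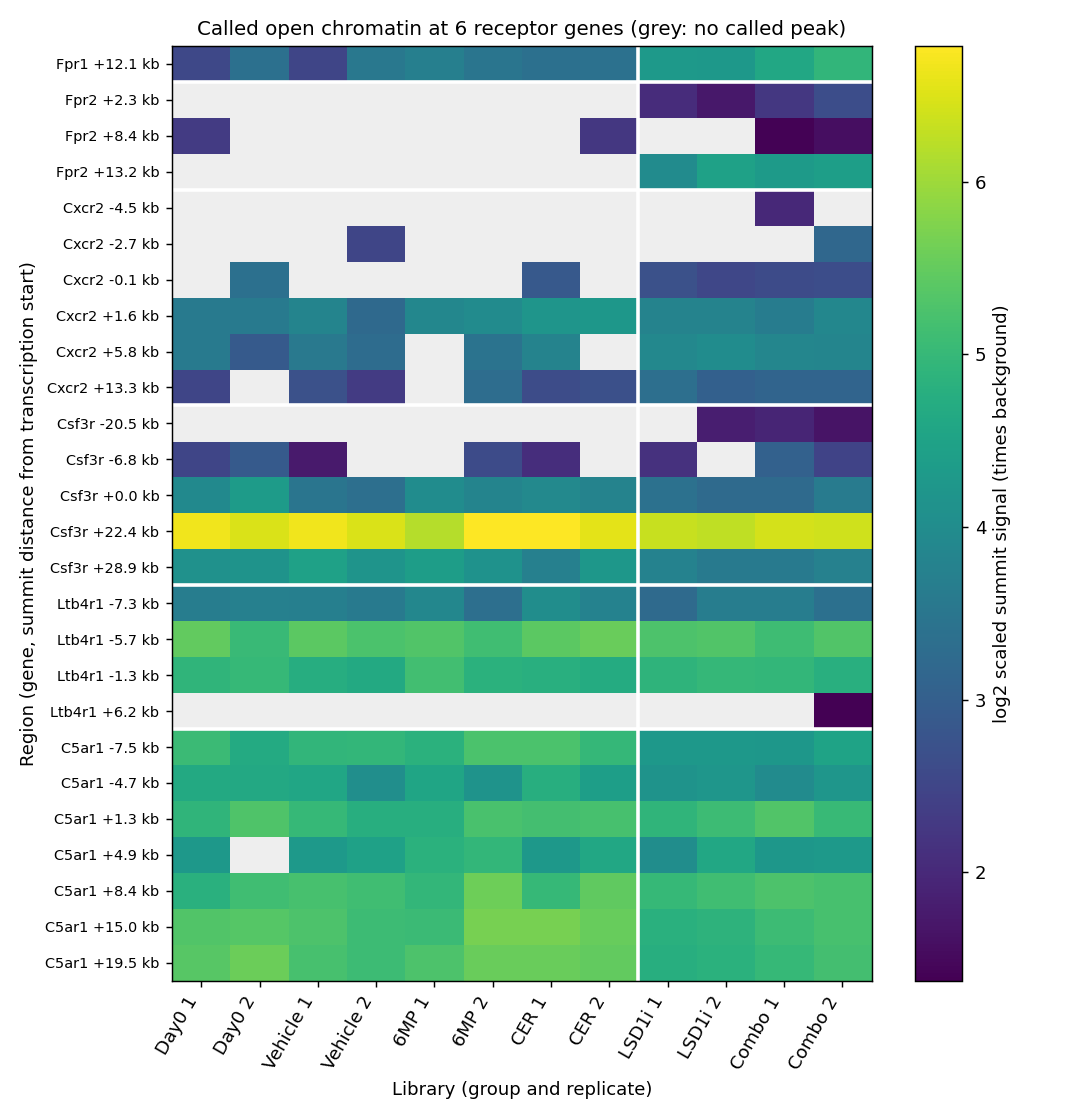
Log2 scaled summit signal (colour, times background) at the 26 regions (rows, named by gene and by the distance of the summit from the transcription start) in the 12 libraries (columns); grey cells have no called peak and the white vertical line sets off the 4 LSD1-inhibited libraries. The Fpr2 regions at +2.3 and +13.2 kb are coloured only there, while most C5ar1 and Ltb4r1 rows are filled in all 12 libraries.

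Chromatin downstream of both formyl peptide receptor genes differed in the cells given the LSD1 inhibitor, alone or in Combo. The region downstream of Fpr1 rose 2.38-fold in LSD1i and 3.34-fold in Combo against Vehicle, and a region downstream of Fpr2 held a peak in the 4 LSD1-inhibited libraries and in no other. The promoter windows of both genes, from 250 bases before to 50 bases after the start, had no called peak in any library. The called peaks within 10 kb of these genes thus lay outside the start site, as the map of regions by distance shows.

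At Fpr1 the region has its summit 12.1 kb downstream of the start (chr17:17870840-17872131), 4.3 kb beyond the end of the gene, and the authors' table annotates it as distal intergenic. Its signal was 5.87 and 10.4 times background in Day0, 5.70 and 11.7 in Vehicle, 13.1 and 11.1 in 6MP, 10.4 and 10.6 in CER, 19.6 and 19.2 in LSD1i, and 24.4 and 30.5 in Combo. All 4 LSD1-inhibited libraries were above all 8 others, and the lowest values were those of Day0 replicate 1 and Vehicle replicate 1, at 25 fragments each. By group mean the order was Combo (27.5 ± 4.28, SD, n = 2), LSD1i (19.4 ± 0.247), 6MP (12.1 ± 1.44), CER (10.5 ± 0.121), Vehicle (8.69 ± 4.24) and Day0 (8.12 ± 3.19).

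The difference from Vehicle was 1.25 ± 0.28 (log2, SE) in LSD1i (limma adjusted p = 0.00541) and 1.74 ± 0.28 in Combo (adjusted p = 9.73e-05). Over the pooled libraries, 4 LSD1-inhibited minus 6 other day 2, it was 1.19 ± 0.18 (limma adjusted p = 1.12e-05). Neither metabolic drug alone moved the region past the threshold, with 0.56 ± 0.28 in 6MP (limma adjusted p = 0.978) and 0.36 ± 0.28 in CER (adjusted p = 0.671). Combo exceeded LSD1i by 0.49 ± 0.28, with a 95% interval of -0.08 to 1.06 (limma adjusted p = 0.554). It passed the threshold when the spread was taken from those 4 libraries only (limma adjusted p = 0.0418).

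The size of the Fpr1 rise depended on which Vehicle library it was set against. Without Vehicle replicate 1 it was 0.73 in LSD1i (limma adjusted p = 0.230) and 1.22 in Combo, where the call held in all 14 alternatives run. Without LSD1i replicate 1 or 2 the LSD1i call was also lost, at 1.24 and 1.26 (limma adjusted p = 0.0817 and 0.0796). It was lost too when signal was scaled by depth alone (1.10, limma adjusted p = 0.196) and when libraries without a peak were filled in across the series (adjusted p = 0.0595). Library names carry a suffix letter in some libraries, and among those with the letter R the Combo difference was 2.42 (1 library against 1), among those with no letter 1.06 (1 against 1). With no letter the LSD1i difference was 0.73 (2 against 1), and LSD1i has no library with the letter R. In the authors' deposited table the same region rose by 1.81 in Combo (log2, FDR = 8.27e-14) and by 0.93 in LSD1i (FDR = 1.26e-05).

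**Figure D2:**
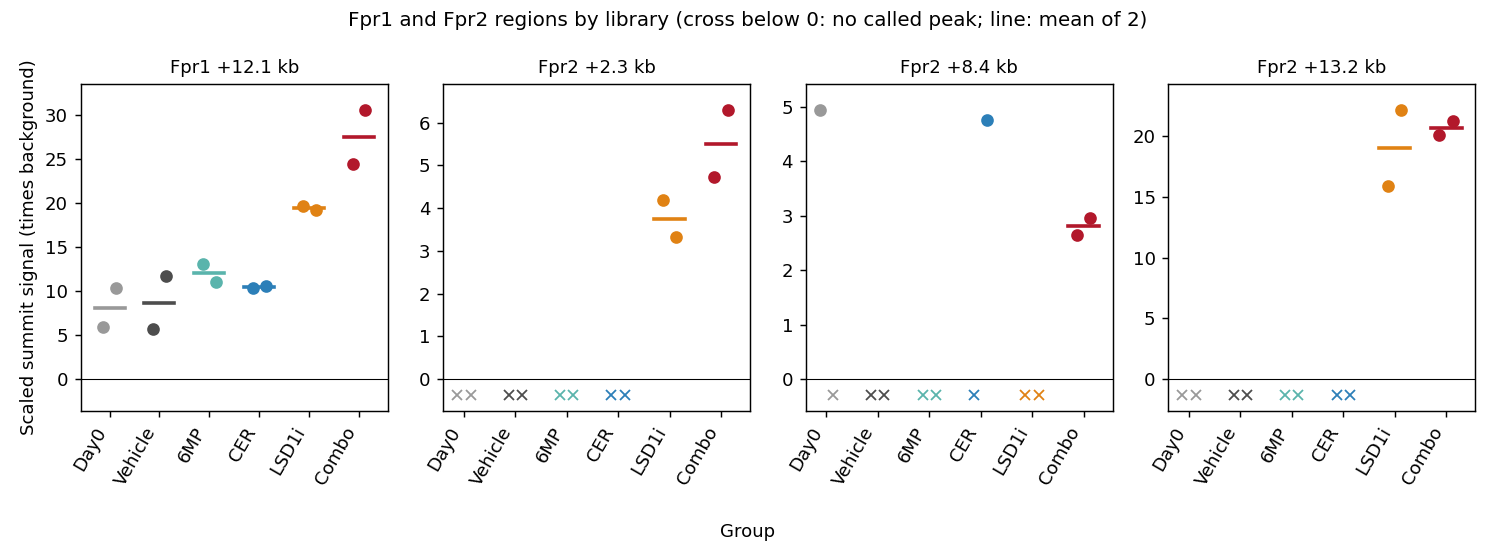
Scaled summit signal (vertical axis, times background) of each library at the Fpr1 region and the 3 Fpr2 regions, by group; dots are libraries, lines the mean of 2, and crosses below 0 mark libraries with no called peak. At Fpr1 the LSD1i and Combo dots, 19.2 to 30.5, lie above all others, and at Fpr2 +13.2 kb these 4 libraries alone have dots.

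At Fpr2 the strongest region has its summit 13.2 kb downstream of the start (chr17:17900612-17901772), 6.7 kb beyond the end of the gene. The authors' annotation places it in an intron of another transcript and names it for a neighbouring gene model, not for Fpr2. The region cannot be assigned to Fpr2 rather than to these. Its signal was 15.9 and 22.1 times background in LSD1i and 20.1 and 21.2 in Combo, from 61 to 115 fragments. None of the 8 other libraries had a called peak there. The lowest pile each lists elsewhere was 10 to 14 fragments, which need not be the limit at this site. Lack of a call does not show lack of signal, and the authors' level for Vehicle there was 6.47 (log2) in the table for Combo. Presence was 4 of 4 against 0 of 6 day 2 libraries. The region is in the series only through its peaks in these 4 libraries, so a test of presence cannot support a difference. Fisher's exact test, two-sided, gave p = 0.00476, the smallest this design allows, and 0.213 after adjustment over 37001 regions.

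With each library that lacked a peak set to its lowest listed pile, the log2 difference from Vehicle at Fpr2 +13.2 kb was 2.70 in LSD1i and 2.84 in Combo. Both Vehicle values are then a set floor, so these differences depend on it and carry no test. Combo and LSD1i differed by 0.14 ± 0.20, with a 95% interval of -0.27 to 0.55 (limma adjusted p = 0.910). The authors' deposited table gives a rise of 2.67 in Combo, from 6.47 to 9.14 (log2 level, FDR = 3.36e-28), and of 1.98 in LSD1i (FDR = 3.16e-14).

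A second Fpr2 region lies inside the gene, 2.3 kb from the start (chr17:17889791-17890345), and also within 10 kb of Fpr1. The authors' annotation labels this region promoter (1-2 kb) in the Combo comparison and promoter (2-3 kb) in that of LSD1i. It had weak peaks of 4.18 and 3.32 times background in LSD1i and 4.73 and 6.28 in Combo, from 15 to 34 fragments, and none in the other 8 libraries. Against Vehicle at the same floor the log2 difference was 0.37 in LSD1i and 0.92 in Combo. Peaks this weak lie near the floor, so a small difference follows from it and cannot be set against the deposited values. The authors' deposited table lists the region with 2.67 in Combo (FDR = 1.49e-09) and 1.88 in LSD1i (FDR = 0.00145).

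The third Fpr2 region, at +8.4 kb, lies 1.6 kb beyond the end of the gene. The authors' annotation names it for Fpr2 but places it in the same intron of another transcript as +13.2 kb. It cannot be assigned to Fpr2 rather than to that transcript. It was called in Day0 replicate 1 (4.93 times background), CER replicate 2 (4.77) and both Combo libraries (2.65 and 2.96). Its presence did not separate the groups. The authors' deposited table lists a rise of 0.85 in Combo (FDR = 0.0342). The difference from Vehicle at the floor was -0.04, which does not bear on that rise. The Combo piles, 14 and 16 fragments, were themselves near the floor. Over the 6 genes, 11 regions varied in presence among the 10 day 2 libraries, and the 2 at Fpr2 named above were called in all 4 LSD1-inhibited libraries and in none of the 6 others. Over the whole series 2.2% of the 37001 varying regions had that pattern.

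**Figure D3:**
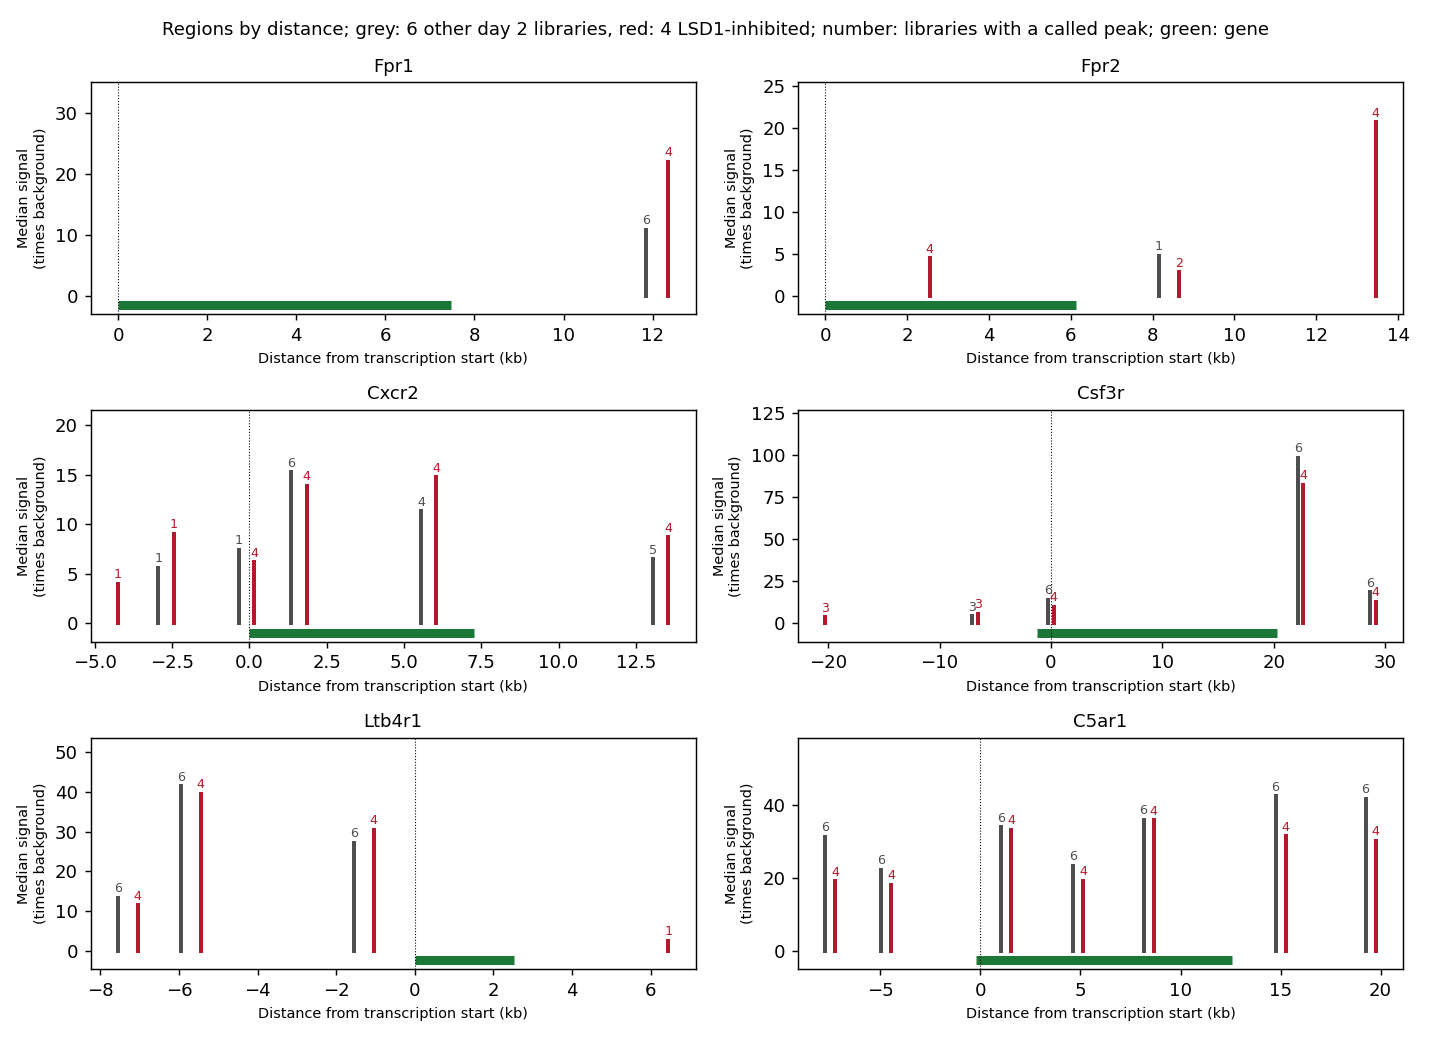
Median scaled summit signal (vertical axis, times background) against the distance of the summit from the transcription start (horizontal axis, kb, gene direction) for the 6 genes, in the 4 LSD1-inhibited (red) and 6 other day 2 libraries (grey), each over the libraries with a called peak, whose number stands above the line; green bars are the genes. Fpr1 and Fpr2 have no line at the start, Csf3r has lines there, Cxcr2 at -0.1 kb and C5ar1 at +1.3 kb. The C5ar1 red lines at -7.5, +15.0 and +19.5 kb are shorter than the grey.

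At Cxcr2, the receptor that draws neutrophils out of the marrow, no region passed the test in any comparison. Its promoter peak (-0.1 kb, chr1:74153635-74154082) was weak and irregular, at 10.4 times background in Day0 replicate 2, 7.42 in CER replicate 1, 6.53 and 5.75 in LSD1i, and 6.06 and 6.28 in Combo. It was present in 4 of 4 LSD1-inhibited and 1 of 6 other day 2 libraries, with p = 0.0476 by Fisher's exact test, two-sided, and 0.682 after adjustment. None of the day 2 promoter peaks had a listed -log10 q of 5 or more, and the highest signal was in an untreated library.

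The region inside Cxcr2 at +1.6 kb (chr1:74154983-74156688) was called in all 12 libraries, with 12.2 and 12 times background in Day0, 14.1 and 9.31 in Vehicle, 13.8 and 13.9 in LSD1i, 14.7 and 15.7 in 6MP, 18.4 and 18.7 in CER, and 12.5 and 14.8 in Combo. The 2 CER libraries were the highest of the 12. CER minus Vehicle was 0.70 ± 0.23 (limma adjusted p = 0.163), and it passed the threshold only without Vehicle replicate 1 (log2 difference 1, limma adjusted p = 0.0303).

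Further Cxcr2 regions had higher values in the LSD1-inhibited libraries without passing the test. At +5.8 kb the signal was 11.8 and 9.74 in Vehicle, 14.9 and 16.1 in LSD1i, and 14.6 and 14.2 in Combo, which do not overlap, with a difference of 0.53 ± 0.25 in LSD1i (limma adjusted p = 0.227) and 0.42 ± 0.25 in Combo (adjusted p = 0.359). At +13.3 kb the differences were 0.67 ± 0.28 (limma adjusted p = 0.166) and 0.60 ± 0.28 (adjusted p = 0.216), and 6MP replicate 2, at 9.91, was as high as the LSD1-inhibited libraries. The regions at -4.5 and -2.7 kb were called in 1 and 2 of 12 libraries. All 4 Cxcr2 regions from -4.5 to +1.6 kb also lie within 10 kb of Rufy4.

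Csf3r, whose product conveys the maturation signal of granulocyte colony-stimulating factor, had an open promoter in every library. Its promoter region (+0.0 kb, chr4:126023759-126025645) had 15.3 and 20.3 times background in Day0, 11.2 and 10.2 in Vehicle, 16 and 14.0 in 6MP, 15.0 and 14.0 in CER, 10.4 and 9.51 in LSD1i, and 9.47 and 12.4 in Combo. Day0 was above Vehicle and both LSD1-inhibited groups, but Vehicle minus Day0, at -0.73 ± 0.23, did not pass the test (limma adjusted p = 0.222). LSD1i and Combo were near Vehicle, at -0.10 ± 0.23 and 0.02 ± 0.23 (limma adjusted p = 0.842 and 0.969), with 95% intervals of -0.57 to 0.38 and -0.46 to 0.50.

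Upstream of Csf3r only weak peaks were called. The region at -20.5 kb (chr4:126003965-126004313) had peaks in LSD1i replicate 2 (3.54 times background) and both Combo libraries (3.79 and 3.14) and in none of the other 9. The region at -6.8 kb was called in 8 libraries, with 8.33 and 5.54 in Combo, 5.64 and 7.47 in Day0, and 3.42 in 1 Vehicle library, and its 2 highest values were in 1 Combo and 1 Day0 library. In the authors' deposited table they rose by 1.86 (FDR = 0.000411) and 1 (FDR = 0.00407) in Combo. With uncalled libraries at the floor the log2 differences were 0.26 and 1.13. These depend on the floor and cannot be set against the deposited values.

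Downstream of Csf3r lie Mrps15 and Oscp1, and the regions there cannot be assigned to Csf3r rather than to them. The strongest of all 26 regions is the Mrps15 promoter at +22.4 kb, with 72.9 to 110 times background and a pooled difference of -0.22 ± 0.11 (limma adjusted p = 0.129), which was -0.32 without 6MP replicate 1 (adjusted p = 0.00226). The region at +28.9 kb (chr4:126053249-126053792), in an exon in the authors' annotation, had 22.3 and 18.2 in Vehicle, 20.9 and 17.5 in 6MP, 13.3 and 18.7 in CER, 13.6 and 11.9 in LSD1i, and 12.1 and 13.5 in Combo. The LSD1-inhibited libraries were lower, with an overlap at CER replicate 1, and the pooled difference was -0.52 ± 0.14 (limma adjusted p = 0.00637), but -0.23 ± 0.24 with scaling by depth alone (adjusted p = 0.781). Against Vehicle it was -0.66 ± 0.22 in LSD1i (limma adjusted p = 0.0617) and -0.66 ± 0.21 in Combo (adjusted p = 0.0550), with -0.51 in LSD1i and -0.73 and -0.59 in Combo between libraries of like suffix letter. The LSD1i value passed without Vehicle replicate 2 (-0.81, limma adjusted p = 0.0459), and the authors' deposited table lists -0.87 in LSD1i (FDR = 1.63e-05).

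Ltb4r1, for the leukotriene B4 receptor, showed no difference past the threshold in any of the 7 comparisons. Its promoter region (-1.3 kb, chr14:55763350-55766822) ranged from 25.3 to 35.6 times background over the day 2 libraries, with 27.7 to 31.4 in the LSD1-inhibited ones, inside that range. LSD1i minus Vehicle was 0.24 ± 0.16 (limma adjusted p = 0.419) and Combo minus Vehicle 0.18 ± 0.16 (adjusted p = 0.569), with 95% intervals reaching 0.56 and 0.50. Together with those at -5.7 and -7.3 kb it also lies within 10 kb of Adcy4, Cideb, Nop9 and Ltb4r2, and a weak peak at +6.2 kb was called in Combo replicate 2 alone. No deposited table used here lists a region of Ltb4r1.

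C5ar1, for the C5a receptor, kept an open promoter in every library, while 3 regions around it fell in the pooled comparison. The promoter region (+1.3 kb, chr7:16257671-16259356) had 27.0 to 37.6 times background in the 6 other day 2 libraries and 30.0 to 39.6 in the LSD1-inhibited ones, with a pooled difference of 0.06 ± 0.11 (95% interval -0.16 to 0.28, limma adjusted p = 0.716). The 2 groups of libraries overlapped almost completely there.

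The region at -7.5 kb (chr7:16266289-16267287), also within 10 kb of Ccdc9 and Inafm1, had 30.5 and 30.9 times background in Vehicle, 28.3 and 37.9 in 6MP, 37.9 and 31.7 in CER, 19.1 and 19.2 in LSD1i, and 18.9 and 22.9 in Combo. All 4 LSD1-inhibited libraries were below all 6 others. It fell by 0.68 ± 0.18 in LSD1i (limma adjusted p = 0.0165), by 0.56 ± 0.18 in Combo (adjusted p = 0.0432) and by 0.71 ± 0.11 in the pooled comparison (adjusted p = 2.84e-05). The Combo call was lost without any 1 of its 4 libraries, the LSD1i call without 3 of its 4, and all 3 calls with scaling by depth alone, where the difference was -0.84 in LSD1i, -0.34 in Combo and -0.43 pooled. Between libraries of like suffix letter the difference was -0.69 in LSD1i, and -0.41 and -0.71 in Combo. The authors' deposited table lists -1.07 in LSD1i (FDR = 9.12e-09) and does not list it in Combo.

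Beyond the 3′ end of C5ar1 stands C5ar2, which encodes the second C5a receptor. The regions at its promoter (+15.0 kb) and beyond (+19.5 kb) fell by 0.39 ± 0.10 and 0.42 ± 0.10 in the pooled comparison (limma adjusted p = 0.00679 and 0.00170), but not with scaling by depth alone. Against Vehicle neither passed in LSD1i, at -0.34 ± 0.16 and -0.35 ± 0.15 (limma adjusted p = 0.227 and 0.157). Combo was at -0.04 ± 0.16 at +15.0 kb. CER lay above Vehicle by 0.41 ± 0.16 and 0.37 ± 0.15, and 6MP by 0.19 ± 0.16 and 0.27 ± 0.15, so the pooled controls lie above Vehicle. At +19.5 kb the signal was 27.2 and 28.3 in LSD1i, 32.2 and 36.2 in Combo, 36.9 and 34.0 in Vehicle, 38.9 and 46.9 in 6MP, and 47.0 and 44.6 in CER. LSD1i was lowest, CER among the highest, and Combo overlapped Vehicle, with -0.05 ± 0.15 (limma adjusted p = 0.867). The regions at -4.7, +4.9 and +8.4 kb did not pass the test in any comparison, with pooled differences of -0.27 ± 0.13, -0.28 ± 0.13 and -0.08 ± 0.11, although the first passed without Vehicle replicate 2 (-0.36, limma adjusted p = 0.0317) and the second without LSD1i replicate 2 (-0.43, adjusted p = 0.0409).

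**Figure D4:**
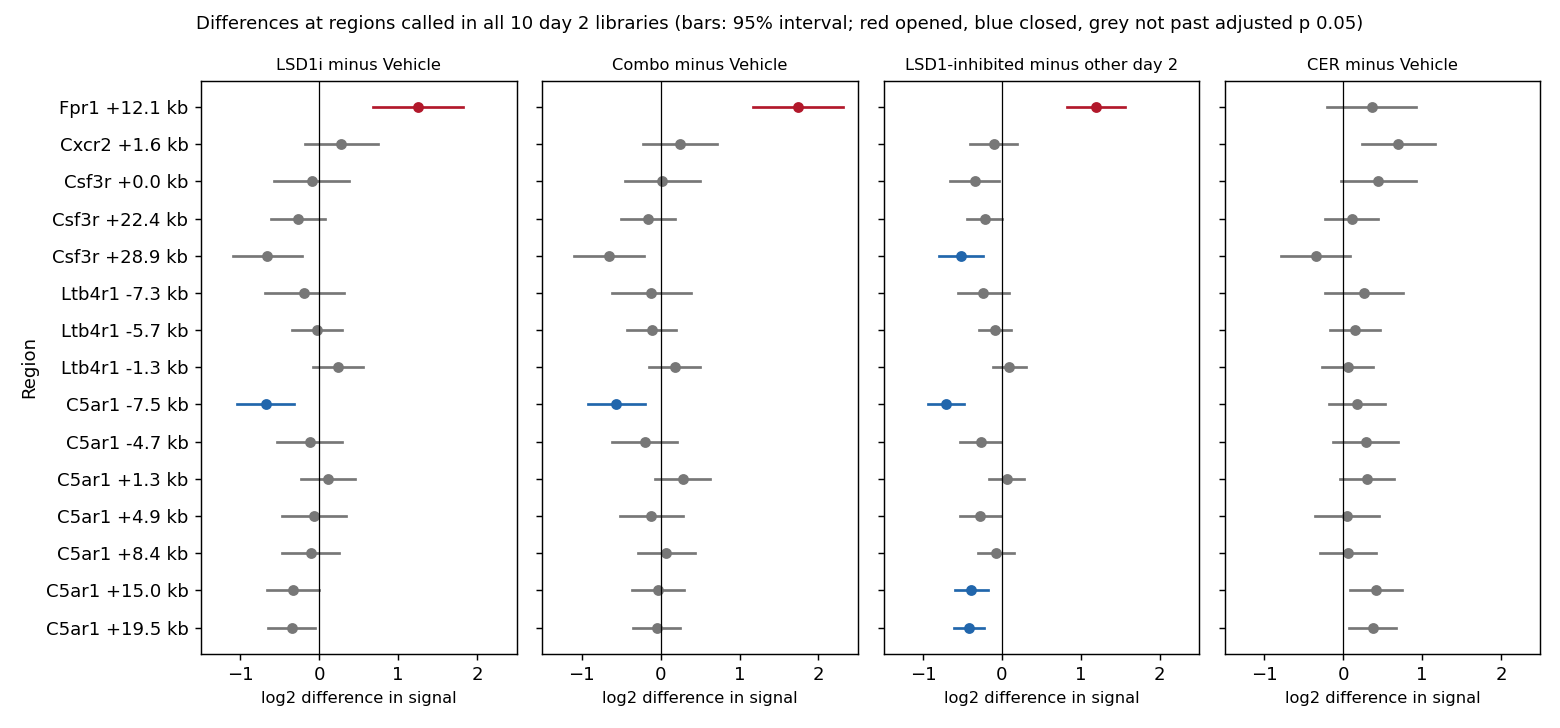
Log2 difference in summit signal (horizontal axis) at the 15 regions called in all 10 day 2 libraries, in 4 comparisons; points are limma estimates, bars 95% intervals, red opened, blue closed, grey neither at an adjusted p of 0.05. Fpr1 +12.1 kb lies right of 0 in the 3 comparisons with LSD1 inhibition, C5ar1 -7.5 kb left of 0 in the same 3, and the CER panel has no coloured point.

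By counts, 1 of 17 tested regions of the 6 genes opened in LSD1i minus Vehicle (Fpr1 +12.1 kb) and 1 closed (C5ar1 -7.5 kb), against 4% opened and 2.05% closed of all 41324 regions tested. Combo minus Vehicle gave the same 2 regions of 17, against 4.96% opened and 3.11% closed. In the pooled comparison 1 of 15 opened and 4 closed, against 9.88% and 14.8%. With scaling by depth alone no region opened or closed in LSD1i, and 1 opened and none closed in Combo and in the pooled comparison, while the series went from 1654 opened and 847 closed to 169 and 31 in LSD1i, from 2119 and 1326 to 1200 and 35 in Combo, and from 3381 and 5079 to 2579 and 36 pooled. The shares at the 6 genes are near the background for so few regions, and Fpr2 has no region in any of the 3 counts because Vehicle lacks a peak there. The median difference over the tested regions was -0.10 in LSD1i, -0.04 in Combo and -0.24 pooled, beside -0.04, -0.09 and -0.09 over all regions tested.

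No region of the 6 genes was called by limma in the other 4 comparisons, in which few regions of the series were called either. Over all regions tested, calls were 0.0893% opened and 0.0229% closed in Combo minus LSD1i, 0.154% and 0.174% in CER minus Vehicle, 0% and 0% in 6MP minus Vehicle, and 0.071% and 0.0101% in Vehicle minus Day0. At an unadjusted p under 0.05, Combo minus LSD1i had 1 of 20 regions of the 6 genes (C5ar1 +19.5 kb), beside 10.8% of all regions. CER minus Vehicle had 3 of 16, at Cxcr2 +1.6 kb and at C5ar1 +15.0 and +19.5 kb, beside 12.1%. There were 2 of 15 in 6MP minus Vehicle, beside 5.07%, and 2 of 15 in Vehicle minus Day0, beside 11.2%. Both of the last comparisons included the Csf3r promoter, at 0.49 ± 0.24 (limma adjusted p = 0.962) and -0.73 ± 0.23.

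In the authors' deposited table for Combo, 5 regions named for these genes were opened (1 for Fpr1, 2 for Fpr2 and 2 for Csf3r) and none closed, against 12.8% opened and 2.15% closed of the regions tested there, a number worked out from the ranks of its p-values. The deposited table for LSD1i names 2, at Fpr1 and Fpr2, both opened, against 6.81% opened and 34.3% closed. Under other names it also lists 5 closed regions in these windows, at Mrps15, Oscp1, Inafm1 and C5ar2, and 1 opened, Fpr2 +13.2 kb. The table for Combo lists that same region as opened, and no other under another name. How many regions of these genes were tested there cannot be told, since only called regions are listed. The deposited tables for Vehicle against Day0 (1.8% opened, 0.0677% closed) and for CER (0.00636% and 0.358%) list none.

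For each gene's strongest region called in all 12 libraries, the regions of most similar signal were ranked by Pearson r over those libraries. They were taken from 26017 to 26022 regions, as a description. For Fpr1 +12.1 kb they lay at Shank3 (r = 0.968), Fars2 (0.968) and Igf2r (0.952). For C5ar1 +15.0 kb the first lay at Plaur (0.970), for Csf3r +22.4 kb near Nfkbie (0.968), for Cxcr2 +1.6 kb at Tnni1 (0.893) and for Ltb4r1 -5.7 kb at Pdpn (0.885). All points share the same 12 libraries and their scaling.

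Among the ligands and enzymes that feed these receptors, 14 genes with 33 tested regions, 3 regions at 4 genes opened in LSD1i and 1 closed, beside 4% and 2.05% of all regions. In Combo 8 of 32 opened at 7 genes and 1 closed, beside 4.96% and 3.11%. This list and those that follow were chosen with earlier results of these data known, so their shares are a description only. With each library left out, 1 to 2 opened in LSD1i and 5 to 8 in Combo. The opened genes were Cxcl1 and Cxcl2, which encode CXCR2 ligands and share a region that rose by 1.08 ± 0.14 in Combo (limma adjusted p = 6.06e-06), and Cxcl3, with 1.17 ± 0.16 (adjusted p = 8.78e-06). Anxa1, for the FPR2 ligand annexin A1, rose by 0.70 ± 0.15 in Combo (limma adjusted p = 0.00198). Regions near Camp, C3 and Lta4h, the last for the enzyme that makes leukotriene B4, also rose in Combo, by 0.98 ± 0.25, 0.88 ± 0.23 and 0.72 ± 0.22. One near Csf3, for the ligand of CSF3R, fell by 0.52 ± 0.15. In this list and those that follow, a gene counts as opened or closed where a region within 10 kb was called. Such a region can lie near other genes too: Nme6 for Camp, Gpr108 and Trip10 for C3, Hal for Lta4h, Med24 for Csf3 and Cxcl15 for Cxcl3. Alox5ap closed in LSD1i (-0.49 ± 0.14). The list's median was 0.07 in LSD1i and 0.11 in Combo, and with scaling by depth alone it was -0.09 and 0.33, with 0 and 2 regions opened.

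Of 17 related receptors, 12 had tested regions. Cmklr1, for the chemerin receptor, closed at 3 of the list's 34 regions in LSD1i and 4 of 31 in Combo, with Combo differences of -0.51 to -1.48. Of the list, 0 regions opened in LSD1i and 1 in Combo. Over all regions tested, 4% opened and 2.05% closed in LSD1i, and 4.96% and 3.11% in Combo. With each library left out, 1 to 3 regions of the list closed in LSD1i and 2 to 4 in Combo, and with scaling by depth alone none in LSD1i and 1 in Combo. Ccr1, for a CC chemokine receptor, opened in Combo (1.17 ± 0.24, limma adjusted p = 0.00179), where no region of the list opened without Vehicle replicate 2 or Combo replicate 2. The list's median was -0.10 in LSD1i and -0.05 in Combo, and with scaling by depth alone -0.26 and 0.17.

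Of 27 signalling genes downstream of these receptors, none opened in LSD1i and 3 closed, Stat5b (-0.99 ± 0.18, limma adjusted p = 0.000772), Gnai2 and Plcb2. In Combo, Dock2 opened (1.20 ± 0.36) and the closed genes included Grk6 (-0.63 ± 0.13, limma adjusted p = 0.00240), Prex1 (-0.55 ± 0.14), Stat5b, Plcb2, Gnai2 and Fgr. The closed regions were 3 of 133 in LSD1i and 8 of 137 in Combo, beside 2.05% and 3.11% of all regions, and 0 in either with scaling by depth alone. The opened regions were 0 and 1, beside 4% and 4.96%. In LSD1i 10 closed without Vehicle replicate 2 and 1 without any other library, and in Combo 2 to 7 closed with each library left out. No region of the list opened in Combo without Vehicle replicate 1 or either Combo library. The list's median was -0.15 in LSD1i and -0.17 in Combo, and with scaling by depth alone -0.30 and 0.05. In CER, Prex1 (-0.77 ± 0.14) and a region shared by Stat3 and Stat5a closed, and Camp opened. None of the 3 lists had a call in 6MP minus Vehicle, Combo minus LSD1i or Vehicle minus Day0. In the pooled comparison 5 of 30 ligand regions opened and 4 closed, 3 and 7 of 28 related receptor regions, and 2 and 33 of 116 signalling regions, beside 9.88% opened and 14.8% closed of all regions. Among the 7 closed receptor regions are C5ar1 +15.0 and +19.5 kb, which lie at C5ar2. The lists were not rerun with scaling by depth alone in the pooled comparison, where it left 36 closed regions in the series.

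Promoter peaks of monocyte and macrophage genes were called at 2 to 3 of 4 listed genes in LSD1i, 3 in Combo, 1 to 3 in Vehicle and 1 in 6MP and CER. Those of mature neutrophils were called at 2 to 3 of 9 in LSD1i, Vehicle and Day0, 3 in Combo and 2 in 6MP and CER, a difference of at most 1 promoter. Marco, and of the neutrophil genes S100a9, Retnlg, Ltf, Padi4 and Cd177, had no promoter peak in any library. Their part in the results was not tested.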

How the data were processed

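The 12 ATAC-seq libraries were compared as deposited peak lists. The submitters' processing notes name DiffBind, MACS2 2.1.2, Picard 2.18.26, SAMtools 1.9, Bowtie2, Trimmomatic 0.38 and the mm10 build; settings are not given in the sources used here. For every summit the deposited lists hold a score in whole numbers, a fold ratio over background, a -log10 p-value and a -log10 q-value, with no listed q-value above 0.01. In the 4 deposited comparison tables used, levels and folds are log2 values made by the authors, with a p-value and an FDR; these tables list only regions with an FDR of 0.05 or less, and their scaling is not given in the sources used here. The table of 6MP against Vehicle was not used here.

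From the fold ratio and -log10 p of each deposited summit, the pile of fragments and its background were solved, and at least 99.9984% of piles came out whole within 0.01. Read totals are not in these lists, so the lowest background (2.44 to 4.55) stands for depth, and counting error of small piles limits precision. Overlapping peaks were joined, and the recovery and the test were checked on simulated data. limma 3.58.1 in R 4.3.3 fitted group means with a variance trend. Alternatives covered scaling, filters, covariates, region definition, thresholds and left-out libraries. The rule for named genes took every region of the 6 genes, and of the pathway lists the 10 with the smallest adjusted p in LSD1i or Combo, with any gene counted where a count was 5 or fewer. The genes and lists were chosen with earlier results of these data known. Promoter sequences are from RefSeq, GRCm38.p6, and all 6 genes matched. One result of the pathway lists is not reported here.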

Additional observations from a re-analysis of the deposited data

How the results depend on the processing

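The opened count of LSD1i minus Vehicle was 0 with scaling by depth alone and 0 to 1 with each library left out (0 unless the one left out was Vehicle replicate 2). When filled in, the region opened in LSD1i was Fpr2 +13.2 kb in place of Fpr1 +12.1 kb, with control values that are a set floor. Its closed count (1) was 0 with scaling by depth alone, with libraries lacking a peak filled in, without the variance trend and at a threshold of 0.01. It was 2 when centred by intensity, with only the libraries of the contrast or with the suffix as a term, and 0 to 2 with each library left out. When filled in, Fpr2 +13.2 kb was added at the same floor, which carries no test, and the opened count of Combo minus Vehicle was 2. Its closed count was 0 with scaling by depth alone, filled in, with only the libraries of the contrast, without the trend or at 0.01, 2 with a mean pile of 30 or more or the suffix as a term, and 0 with any library left out; centred by intensity, the 1 region closed was Csf3r +28.9 kb in place of C5ar1 -7.5 kb (limma adjusted p = 0.0686). Combo minus LSD1i opened 1 region (Fpr1 +12.1 kb, limma adjusted p = 0.0418) with only its own libraries, and CER minus Vehicle 0 to 1 with a library left out. Fpr2 +13.2 kb, with its control values at that floor and so no test, was again added in the pooled comparison, where 2 regions opened when filled in. That comparison had 0 closed with scaling by depth alone. It gave 1 opened and 4 to 5 closed with each library left out, and 1 and 5 without the 2 libraries of lowest enrichment or without 6MP, both chosen after seeing the data. One region rather than 2 was present in the LSD1-inhibited libraries alone at a -log10 q of 5. With regions taken within 2 kb of a gene, the authors' deposited table gave 1 opened and 2 closed in LSD1i and 2 opened in Combo. The cause of these changes was not tested.

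Replicate numbers did not pair the libraries (correlations of -0.34 to 0.25 between same-numbered libraries). With the replicate block, Fpr1 +12.1 kb stayed at 1.25 in LSD1i and 1.74 in Combo, with 1 region opened and 1 closed in each. Scaling by depth alone moved the median of all regions from -0.04 to -0.19 in LSD1i and from -0.09 to 0.13 in Combo. Without 6MP replicate 1 the pooled comparison gave 4373 opened and 10456 closed over the series. The pathway lists were not rerun with summit clusters.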
